A study of Mus musculus with 4 samples.

Results

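The genes described here are a set of 33 transcripts known as targets of type I interferon, followed through the leukocytes of the mouse ovary after gonadotropin treatment. They were chosen by symbol, and 32 of the 33 symbols were found among the 32285 genes of the deposited count table. Mx1 was not analysed here. The leukocytes came from female C57BL/6J mice, 10 to 12 weeks old, of which 5 received gonadotropin and 5 received saline, a group the labels call untreated. Ovaries were taken 48 hours after treatment and viable CD45+ cells were sorted, CD45 being the surface phosphatase of all leukocytes. Cells of each mouse carried their own antibody hashtag, and a group gave 1 droplet library of 3' transcript tags that mixes its 5 mice. The mouse is therefore the replicate, while treatment and library cannot be told apart, and p-values measure the spread between mice within a library. The labels do not say which gonadotropin was given, at which dose, or at which stage of the cycle the control ovaries were.

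Type I interferons are secreted proteins that bind a receptor made of Ifnar1 and Ifnar2. The receptor activates transcription factors, Stat2 and Irf9 among them, which bind a promoter element called the interferon-stimulated response element and switch on a large set of genes. These encode sensors of viral RNA and DNA, enzymes and binding proteins that block viral replication, the ubiquitin-like protein Isg15, and factors such as Irf7 that raise further interferon output. Most of these genes are also kept at a low resting level in healthy leukocytes.

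Promoters of 25 of the 33 genes were held by the RefSeq table used here (mouse build GRCm38.p6), as windows of 300 bases that end just after the transcript start. Mx1, Ifi204, Ifi27l2a, Usp18, Zbp1, Rtp4, Dhx58 and Parp14 had no entry. The search was for the core of the response element, GAAA followed by any 2 bases and GAAA again, and for a wider form with any 3 bases in the gap, on both strands, with overlapping matches counted. The first was found in 14 of the 25 genes, 56%, against 1079 of the 27025 genes in the table, 3.993%. The second was found in 5 of them, 20%, against 3.167% of all genes, and 15 of the 25 held at least 1 of these forms, against 6.905% of all genes. Both forms were found in Ifit3, Ifit3b, Rsad2 and Ifih1. The 6 sequences below are the 250 bases before the start, 5′ to 3′ on the strand of the gene, with matches in capitals. They are shown because Oasl2 and Ifih1 are members that differed between the treatments, and Bst2 and Ifi207 peak in particular cell types. Isg15 and Ifit1 are shown because T cells and phagocytes with their UMIs held more other members on average.
Oasl2: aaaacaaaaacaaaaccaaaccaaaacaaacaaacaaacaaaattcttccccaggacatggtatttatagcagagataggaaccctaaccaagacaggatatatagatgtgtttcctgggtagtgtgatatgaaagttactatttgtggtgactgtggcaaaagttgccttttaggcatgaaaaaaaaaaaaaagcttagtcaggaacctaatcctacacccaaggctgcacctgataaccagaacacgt
Ifih1: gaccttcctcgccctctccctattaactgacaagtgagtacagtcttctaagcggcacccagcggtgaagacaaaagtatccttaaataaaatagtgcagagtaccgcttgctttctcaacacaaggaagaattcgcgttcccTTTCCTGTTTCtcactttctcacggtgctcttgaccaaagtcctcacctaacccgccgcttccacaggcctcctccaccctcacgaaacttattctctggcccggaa
Isg15: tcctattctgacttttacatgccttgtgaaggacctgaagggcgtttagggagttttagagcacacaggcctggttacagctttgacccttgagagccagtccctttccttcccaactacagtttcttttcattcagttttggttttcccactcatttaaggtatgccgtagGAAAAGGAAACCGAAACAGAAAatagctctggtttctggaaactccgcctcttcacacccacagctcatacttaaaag
Ifit1: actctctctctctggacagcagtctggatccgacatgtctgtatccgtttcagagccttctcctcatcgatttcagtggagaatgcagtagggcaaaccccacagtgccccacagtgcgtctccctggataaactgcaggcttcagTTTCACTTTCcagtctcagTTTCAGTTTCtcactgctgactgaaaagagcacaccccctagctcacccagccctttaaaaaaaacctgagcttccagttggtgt
Bst2: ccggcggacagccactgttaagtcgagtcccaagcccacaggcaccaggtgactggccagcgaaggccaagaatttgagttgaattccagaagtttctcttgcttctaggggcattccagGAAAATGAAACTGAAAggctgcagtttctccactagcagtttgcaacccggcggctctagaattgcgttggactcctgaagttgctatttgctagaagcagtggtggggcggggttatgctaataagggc
Ifi207: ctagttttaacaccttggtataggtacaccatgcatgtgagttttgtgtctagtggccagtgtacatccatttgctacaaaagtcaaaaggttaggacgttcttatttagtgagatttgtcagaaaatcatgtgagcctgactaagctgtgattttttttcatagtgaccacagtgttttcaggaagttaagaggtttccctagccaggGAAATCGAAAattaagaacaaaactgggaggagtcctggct

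Isg15 held 3 overlapping matches, whose first bases lay 78, 72 and 66 bases before the start, on chr4:156200819-156201068 (minus strand). Ifit1 held 2 separate matches on the opposite strand, 104 and 85 bases before the start, on chr19:34640639-34640888 (plus strand). Bst2 held 2 overlapping matches 130 and 124 bases before the start on chr8:71537473-71537722 (minus strand). The Ifih1 sequence at chr2:62646256-62646505 (minus strand) held the wider form 107 bases before the start, and a match to the first form lay outside the printed stretch, 33 bases after the start. Ifi207 held a single match 41 bases before the start on chr1:173741810-173742059 (minus strand). No match was found in the Oasl2 sequence at chr5:114896684-114896933 (plus strand), which says only that these letters are not in this window. A match is a match of letters, and binding was not measured.

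After filtering, 4896 cells remained, 2401 from gonadotropin-treated and 2495 from untreated mice, with 288 to 821 and 296 to 726 cells per mouse. Total counts of unique molecular identifiers (UMIs, 1 per captured molecule) were 2555410 to 6974175 per treated mouse and 2559097 to 6500466 per untreated mouse. Cells were sorted into types by marker genes that are not members of the set. The gates held 2399 B cells, 454 CD4 T cells, 412 CD8 T cells, 525 NK cells and 383 mononuclear phagocytes (124 macrophages, 208 monocytes and 51 dendritic cells), besides 108 neutrophils and 32 plasmacytoid dendritic cells. A further 22 barcodes, all from treated mice, were dominated by hemoglobin transcripts and were kept apart. The pools shared 4 barcode sequences. B cells made up 41.47% ± 3.374 of the cells of treated mice and 53.88% ± 4.639 of untreated mice (mean ± SD, n = 5 and 5), while NK cells, monocytes, macrophages and neutrophils took larger mean shares in treated mice.

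The level of a gene is given as CPM, its UMI count scaled to a common total of UMIs in the same cells. Because a 3' tag is counted once per molecule, levels were not divided by gene length. A few members carried most of the signal. Ifi27l2a, a small hydrophobic protein of the interferon alpha-inducible protein 27 family, gave 20435 UMIs, 33.67% of all UMIs of the set. Bst2, or tetherin, which holds budding virus particles at the cell surface, gave 5154 UMIs, 8.492%. At the other end, Ifit3b gave 60 UMIs and Ifi44 gave 43. Ifit3 and Ifit3b, Oasl1 and Oasl2, and Ifi204 and Ifi207 belong to families of similar copies, so how reads were divided within each pair is uncertain.

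Mononuclear phagocytes had the highest levels of most members among the 5 types tested. In a joint fit of all types with the mouse as a term, 20 of the 21 members tested were higher in phagocytes than in B cells and 1, Ddx58, was lower; 67.1% of all 7477 genes tested differed in that contrast, 33.9% being higher and 33.2% lower. The median log2 difference of the members was 1.95, against -0.026 over all genes. Of the 15 members measured in both types when each was fitted alone, 14 were higher and 1 was lower, which matters because a gene can pass the count filter through the type where it is high.

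**Figure D1:**
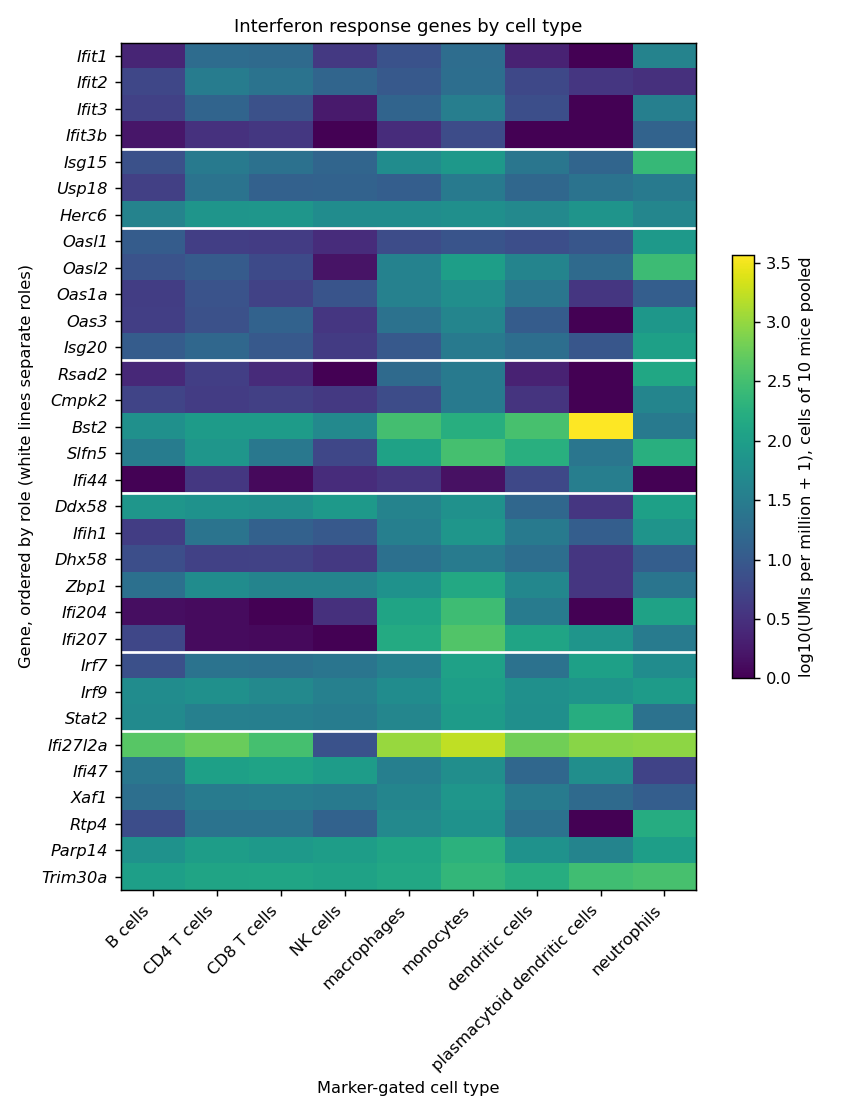
Levels of the members, as log10 of CPM plus 1, in each cell type pooled over the 10 mice, with members in rows grouped by role and types in columns. Monocytes or neutrophils hold the highest level in most rows, Bst2 peaks in plasmacytoid dendritic cells, and Ifi27l2a is near absent from NK cells.

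Among the nucleic acid sensors, the DNA-binding proteins Ifi204 and Ifi207 were high in monocytes and macrophages and low in lymphocytes. Ifi204 stood at 287.5 CPM in monocytes (exact Poisson 95% interval 265.9 to 310.4, counting error only) and at 0.3522 in B cells (0.1416 to 0.7256). Ifi207 stood at 395.9 CPM in monocytes and at 2.741 over all lymphocytes. The fitted log2 differences between phagocytes and B cells were 8.84 ± 0.24 for Ifi204 and 5.98 ± 0.25 for Ifi207 (± SE), the former depending on very few B cell counts. Ifih1, the sensor of long double-stranded RNA known as MDA5, was higher than in B cells in phagocytes by 3.85 ± 0.25 and in CD4 T cells by 2.64 ± 0.30 on the log2 scale. It gave 69 UMIs in B cells and 82 in CD4 T cells, and passed the count filter in neither type fitted alone. Ifi204 and Ifi207 did not pass that filter in B cells either. Ddx58, the sensor RIG-I, went the other way and was lower in phagocytes than in B cells by a log2 difference of -0.71.

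T cells held higher levels of several members than B cells. In CD4 T cells 14 of 21 members were higher and 2 lower than in B cells, where 48% of all genes differed, 23.7% higher and 24.3% lower. In CD8 T cells 12 were higher and 4 lower, where 48.1% of all genes differed, 24% in each direction. Of the 12 members measured in B cells and CD4 T cells fitted alone, 8 were higher, 1 lower and 3 not called, and of the 12 measured in B cells and CD8 T cells, 7 were higher, 3 lower and 2 not called. Ifi47, an interferon-inducible GTPase, had log2 differences of 2.03 ± 0.13 in CD4 and 2.20 ± 0.13 in CD8 T cells. Slfn5, a Schlafen family protein, was higher in CD4 T cells by 1.24 ± 0.18, and its log2 difference in CD8 T cells, -0.23, did not pass the test. Members' medians were 0.61 and 0.31, against -0.015 and -0.001 over all genes.

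NK cells had low levels of some members and high levels of others. In the contrast with B cells 6 of 21 members were higher and 7 lower, where 55.5% of all genes differed, 27.1% higher and 28.4% lower. Those shares lie near the background, and of the 9 members measured in both types fitted alone, 2 were higher, 2 lower and 5 not called. Ifi27l2a stood at 6.856 CPM in NK cells (4.478 to 10.05) and at 435.8 in B cells (426.7 to 445.1), a fitted log2 difference of -6.32 ± 0.22. Oasl2, a 2'-5' oligoadenylate synthetase-like protein, was lower by -3.85 ± 0.52 and Slfn5 by -2.98 ± 0.34. Ifi27l2a, Oasl2 and Slfn5 gave only 26, 2 and 18 UMIs in NK cells and are not among those 9 members. They entered the joint fit through types where they are higher. The 2 lower members among the 9 were Stat2, at -0.99, and Bst2, at -0.63. Ifi47 was higher in NK cells than in B cells by 1.62 ± 0.13.

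Bst2 was the member most concentrated in a type too rare to test. Plasmacytoid dendritic cells, known as strong producers of type I interferon, held it at 3698 CPM (3505 to 3898) over 32 cells, against 173.8 in monocytes and 60.7 in B cells. The same cells had Stat2 at 164.0 CPM, yet gave no UMI of Ifit1, Ifit3, Ifit3b, Oas3, Rsad2, Cmpk2, Ifi204 or Rtp4, each with an upper limit of 8.068. Neutrophils showed a different set. Their levels were 280.2 CPM for Oasl2 (234.3 to 332.6), 246.0 for Isg15 (203.1 to 295.3), 160.4 for Rtp4 (126.2 to 201.1) and 130.5 for Rsad2 (99.82 to 167.6), which encodes viperin. Monocytes held lower levels of these 4 members, 99.19 CPM for Oasl2 and 79.44 for Isg15, and higher levels of Slfn5, at 322.1. Neutrophils numbered 2 to 30 per mouse, so these pooled values were not tested.

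Over all leukocytes, 3 of the 30 members that passed the count filter were higher after gonadotropin and none was lower: Oasl2, Ifih1 and Rtp4. The same test called 9.45% of all 11254 genes, 5.12% as higher and 4.33% as lower. The fold change was above 0 for 26 of the 30 members, against 49.22% of all genes, and the members' median log2 fold change was 0.21, against -0.004 over all genes. At an unadjusted p under 0.05 stood 10 of the 30 members, against 24.6% of all genes. Summed over the set, the level was 1612, 1528, 1540, 1524 and 1898 CPM in treated mice 1 to 5 and 1110, 1324, 1271, 1487 and 1497 in untreated mice 1 to 5. Every treated mouse lay above every untreated mouse, with treated mouse 5 apart from the other 4. In a sum over all cells, fewer cells of a type and less RNA per cell cannot be told apart.

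Oasl2 stood at 21.65, 18.32, 19.57, 23.09 and 28.49 CPM in treated mice 1 to 5 and at 9.307, 8.827, 11.53, 11.33 and 15.54 in untreated mice 1 to 5. The groups did not overlap, and mouse 5 was the highest of each. The means were 22.22 ± 3.956 and 11.31 ± 2.650 (SD, n = 5 and 5), and the log2 fold change was 0.88 ± 0.17 (SE; edgeR quasi-likelihood test, adjusted p = 0.007616).

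Rtp4, a receptor transporter protein that binds viral RNA, stood at 20.90, 20.39, 20.35, 20.93 and 27.77 CPM in treated mice and at 13.96, 10.36, 10.29, 15.24 and 16.61 in untreated mice. Again no treated mouse overlapped an untreated mouse, and the other 4 treated mice lay within a narrow band below mouse 5. The log2 fold change was 0.64 ± 0.15 (edgeR adjusted p = 0.02047). Oasl2 and Rtp4 kept their calls whichever of the 10 mice was left out.

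Ifih1 stood at 16.62, 16.84, 17.61, 16.78 and 23.44 CPM in treated mice and at 6.980, 10.75, 6.857, 10.55 and 15.54 in untreated mice. The groups did not overlap, but untreated mouse 5 came close to the lowest treated mouse. The log2 fold change was 0.72 ± 0.20 (edgeR adjusted p = 0.04160). That call was lost in 9 of the 10 fits that each left out 1 mouse, with adjusted p up to 0.09419, and was kept only without untreated mouse 5.

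**Figure D2:**
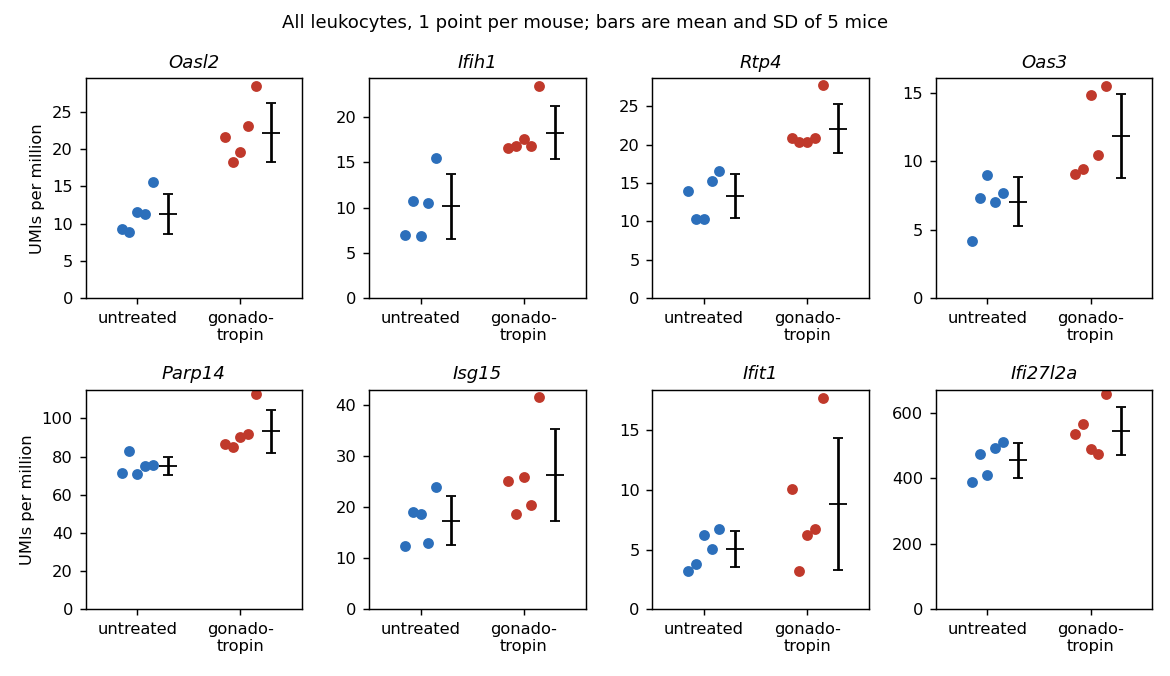
CPM of selected members over all leukocytes, 1 point per mouse, with mice 1 to 5 of each group from left to right and bars for the mean and SD of 5 mice. Oasl2, Ifih1, Rtp4, Oas3 and Parp14 do not overlap between the groups, Isg15, Ifit1 and Ifi27l2a do, and treated mouse 5 is the highest point of each panel.

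Among members with at least 100 UMIs, 5 of 30 had no overlap between the groups, all higher in treated mice, against 6.99% of 11447 genes higher and 2.58% lower without overlap. The other members of the 5 were Oas3 and Parp14. Oas3, an oligoadenylate synthetase, stood at 9.064, 9.455, 14.87, 10.47 and 15.51 CPM in treated mice and 4.188, 7.292, 9.039, 7.034 and 7.692 in untreated mice, with edgeR adjusted p = 0.07839. Parp14, an ADP-ribosyltransferase, stood at 86.61, 84.80, 90.40, 91.62 and 112.9 CPM in treated mice and 71.66, 83.09, 71.07, 75.03 and 75.53 in untreated mice, with edgeR adjusted p = 0.08556. Neither passed the threshold although the mice separated. Treated mouse 5 was the highest treated mouse for 20 of 30 members, and untreated mouse 1 the lowest untreated mouse for 18.

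Other members had fold changes that did not pass the test. Ifi204 ranged from 19.80 to 46.96 CPM in treated mice and from 6.747 to 30.61 in untreated mice, with a log2 fold change of 0.85 ± 0.33 and edgeR adjusted p = 0.1311. Slfn5, with 0.43 ± 0.15, and Irf7, the factor that amplifies interferon transcription, with 0.39 ± 0.17, also overlapped between the groups. Isg15 had a log2 fold change of 0.46 ± 0.22 and Ifit1, which binds the ends of viral RNA, 0.69 ± 0.37. The abundant members moved little, with log2 fold changes of 0.18 ± 0.09 for Ifi27l2a, 0.19 ± 0.08 for Trim30a, a regulator of sensor signalling, and 0.04 ± 0.22 for Bst2. Stat2 and Irf9, transcription factors of the pathway, had log2 fold changes of -0.01 ± 0.11 and 0.03 ± 0.10.

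These differences coincided with a shift in the mix of cells. Macrophage markers summed to 313.7 to 1100 CPM in treated mice and 211.5 to 469.1 in untreated mice, with 8 of 8 genes higher in treated mice, and neutrophil markers to 1074 to 1651 and 329.7 to 1242, with 7 of 7 higher. Monocyte markers summed to 1020 to 1885 and 999 to 1388, with 6 of 7 higher, and all 9 B cell markers were lower in treated mice. Erythroid markers, after the hemoglobin-dominated barcodes had been set apart, still summed to 44.59 to 47.84 CPM in treated mice and 4.298 to 6.141 CPM in untreated mice. The part of these shifts in the members' differences was not tested beyond the values that follow. Keeping the erythroid barcodes, all from treated mice, left the same 3 members called. That setting only adds barcodes to the treated group and says nothing about erythroid transcripts in the other cells. A single draw then took the same number of cells of each tested type from every mouse. It held 107 B cells, 28 CD4 T cells, 19 CD8 T cells, 22 NK cells and 16 phagocytes per mouse. Neutrophils, plasmacytoid dendritic cells and all other untested types were left out. Equal numbers, fewer cells and missing types therefore cannot be told apart in it. There 0 of 27 members were called, where 1.58% of 9689 genes were called, down from 9.45% without the draw. In that draw 20 of the 27 fold changes were above 0, with a median of 0.17. The log2 fold changes were then 0.22 ± 0.26 for Oasl2, 0.63 ± 0.32 for Ifih1 and 0.48 ± 0.22 for Rtp4.

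The difference was also divided by arithmetic into a part from the mix, meaning each type's share of UMIs, and a part from levels within types. A share of UMIs depends on the number of cells of a type and on the RNA per cell. The summed difference of 282.3 CPM divided into 162.1 from the mix and 120.2 from within types, so that the mix held 57.42%, and 43.06% to 77.94% when 1 mouse was left out in turn. With cell types taken from clusters in place of gates, the mix held 47.8%, and 34.51% to 69.91% with 1 mouse left out, so that which part was larger depended on the typing. With the gates the mix held 49.03% of the difference in Oasl2, 45.64% in Ifih1 and 57.89% in Rtp4. It held 77.79% in Ifi204, and for Bst2 the mix part of 21.74 CPM was larger than the difference of 8.874, the part within types being -12.87. These are sums over measured levels and carry no test.

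**Figure D3:**
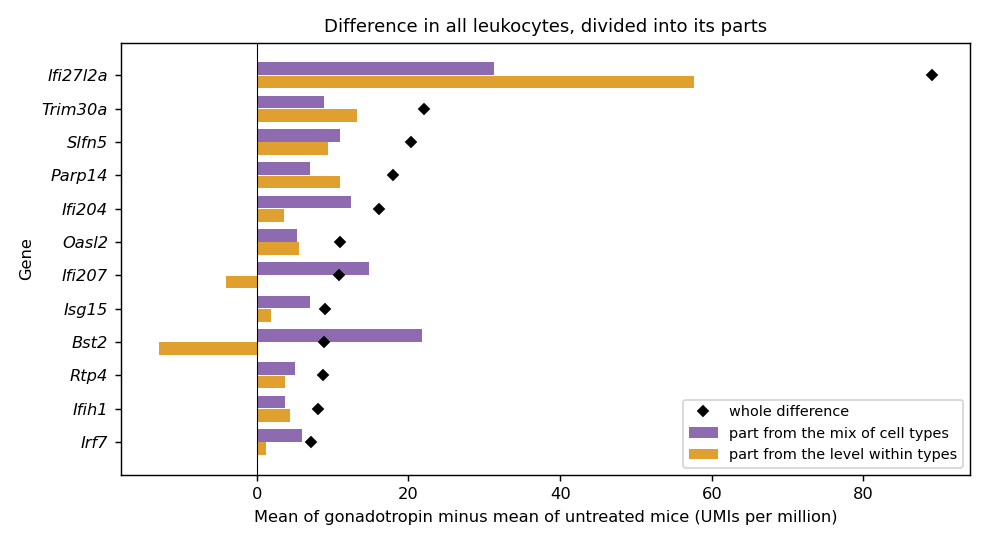
The mean of treated minus the mean of untreated mice in CPM (diamonds), divided for 12 members into the part from the shares of cell types and the part from levels within types (bars). Bst2 and Ifi207 have mix and within parts of opposite sign, and Oasl2 and Ifih1 divide nearly evenly.

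Within types, no member passed the edgeR threshold in any of the 5 types, and DESeq2 called 0 members there too. Changes of 1.5-fold put into simulated data were recovered for 14% of genes in phagocytes and up to 64% in B cells, so such changes can be missed. In B cells 18 members were tested, with a median log2 fold change of -0.01, where 2.46% of all genes were called. Of the 18, 2 had an unadjusted p under 0.05, against 19.1% of all genes. Ifi27l2a stood at 477.6, 485.7, 326.9, 381.0 and 498.4 CPM in B cells of treated mice and at 439.3, 487.9, 393.2, 424.9 and 434.3 in those of untreated mice. The groups overlapped throughout, and the log2 fold change was -0.06 ± 0.09 (edgeR adjusted p = 0.7764).

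In CD4 T cells the fold changes shared a direction. All 13 members tested had a fold change above 0, with a median of 0.38 and 4 at an unadjusted p under 0.05, where 50.27% of all genes were above 0, 8.79% had such a p and 0.0835% were called. The median ranged from 0.20, without treated mouse 3, to 0.49 with 1 mouse left out. The direction was not shared by every member in all settings. Above 0 were 12 of 14 members without treated mouse 4 and 10 of 12 with the higher hashtag margin. Without the count filter 29 of 32 were above 0, and with types from clusters 17 of 17. In the same gated cells monocyte markers summed to 114.1 to 257.6 CPM in treated and 43.11 to 126.4 CPM in untreated mice. Of these 7 genes, Ly6c2, Ccr2, Fn1, Plac8, Nr4a1, Ace and Treml4, 5 were higher in treated mice and Treml4 was at 0. Such a sum does not tell transcripts of monocytes from those made by the T cells themselves. Macrophage markers averaged 11.31 and 3.948 CPM, with 7 of 8 genes higher and Adgre1 at 0, and erythroid markers 46.77 and 5.088 CPM, with 5 of 5 higher. Their part in the members' values was not tested. Slfn5 stood at 78.80, 65.66, 81.23, 98.66 and 173.6 CPM in treated mice and 41.39, 53.01, 62.56, 60.67 and 56.95 in untreated mice. The groups did not overlap, and treated mouse 5 was far above the rest, with 14 of its 35 Slfn5 UMIs from 1 of 28 cells. The log2 fold change was 0.82 ± 0.23 with edgeR adjusted p = 0.2595, and the gene was called, with adjusted p = 0.04233, when the filter on low counts was dropped. Trim30a, at 101.5 to 203.4 CPM in treated mice and 71.49 to 146.4 in untreated mice, had 0.57 ± 0.20 (edgeR adjusted p = 0.3972). Isg15 had 1.10 ± 0.42 (edgeR adjusted p = 0.4474), from 12.12 to 69.05 CPM in treated and 8.622 to 30.51 in untreated mice.

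**Figure D4:**
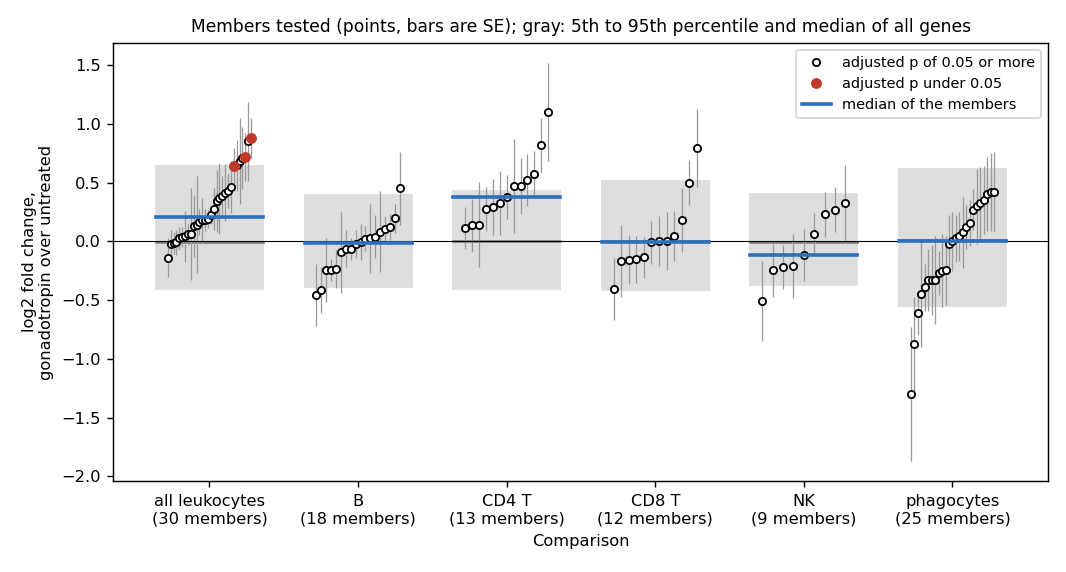
Log2 fold changes of the members between gonadotropin-treated and untreated mice in all leukocytes and in each of the 5 types, 1 point per member tested with its SE as a bar, over gray boxes for the range from the 5th to the 95th percentile of all genes. All 13 points of CD4 T cells lie above 0, those of NK cells and B cells spread around 0, and only 3 members in all leukocytes passed the threshold.

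In CD8 T cells, tested over 5 treated and 4 untreated mice, 12 members were tested, the median was -0.003, and 2% of all genes were called. Of the 12, 2 had an unadjusted p under 0.05, against 12% of all genes. Ifi27l2a stood at 662.9, 295.3, 277.6, 257.5 and 505.8 CPM in treated mice and 220.6, 230.4, 372.0, 373.1 and 274.0 in untreated mice 1 to 5. Untreated mouse 4, with 19 cells, did not enter the fit. Treated mice 1 and 5 were high and the other 3 lay among the untreated mice. The log2 fold change was 0.50 ± 0.19 (edgeR adjusted p = 0.2126), and without the filter on low counts adjusted p = 0.01480. In NK cells 9 members were tested, the median was -0.11, and 0.0193% of all genes were called. Of the 9, 0 had an unadjusted p under 0.05, against 6.77% of all genes.

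Mononuclear phagocytes, tested over 5 treated and 3 untreated mice, had 25 members tested, where 0.197% of all genes were called. Of the 25, 3 had an unadjusted p under 0.05, against 8.32% of all genes, and the median log2 fold change was 0.001. That median ranged from -0.13, without untreated mouse 2, to 0.28, without untreated mouse 5, where 17 of 22 members were above 0, and was 0.18 with types from clusters. Bst2 stood at 168.5, 222.1, 207.6, 182.2 and 229.2 CPM in treated mice and at 181.0, 327.7, 667.3, 380.8 and 232.9 in untreated mice 1 to 5, of which mice 2, 4 and 5 entered the fit. Those 3 lay above all treated mice, while of the untreated mice with too few cells, mouse 1 lay among the treated mice and mouse 3 was the highest of all. The log2 fold change was -0.61 ± 0.18 with edgeR adjusted p = 0.2990. Ifi27l2a overlapped between the groups, at 1025 to 1871 CPM in treated and 858.5 to 1428 CPM in all 5 untreated mice.

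Whether the change differed between types was tested directly. No member passed in the contrast of the treatment change in CD4 T cells, CD8 T cells, NK cells or phagocytes with that in B cells, where 0%, 0.0936%, 0.0267% and 0.227% of all genes passed. At an unadjusted p under 0.05 stood 6, 1, 1 and 1 of the 21 members tested. The share of all genes at that p was not computed here, so these counts are not read as a result. The shared direction in CD4 T cells was therefore not shown to differ from B cells.

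Transcripts of Ifit1 and Ifit3 sat in few cells. In the 454 CD4 T cells the 10 cells richest in Ifit3 held 93.62% of its 47 UMIs, and those richest in Ifit1 held 69.84% of its 63 UMIs. Ifit2 was spread more widely in these cells, with 112 UMIs in 82 cells and 23.21% of them in its 10 richest cells. In treated mouse 5, 20 Ifit1 UMIs came from 5 of 28 CD4 T cells, 14 of them from 1 cell. In the 383 phagocytes the 10 richest cells held 77.36% of the 53 Ifit1 UMIs and 73% of the 100 Ifit3 UMIs. In the phagocytes Ifit2 was concentrated too, with 68.33% of its 60 UMIs in 10 cells. Other members rested on single CD4 T cells in treated mouse 3, where the richest cell for each gene gave 17 of 23 Stat2 UMIs, 25 of 37 Bst2 UMIs and 60 of 152 Ifi27l2a UMIs.

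In T cells and phagocytes the same cells tended to hold several members. With every cell thinned to 2000 UMIs, the 34 T cells with an Ifit1 UMI held 6.176 other members on average, against 1.942 in the remaining T cells of 1280. For Isg15 the values were 4.576 in 59 T cells and 1.912 in the rest. In phagocytes the 37 cells with Isg15 held 8.189 other members, against 3.609. Ifi27l2a divided cells far less, with 2.054 in 499 T cells and 1.460 in the rest. Isg15 divided B cells and NK cells less than T cells. Its values were 2.97 in 33 B cells against 1.569, and 1.727 in 11 NK cells against 1.299. These averages describe cells that share libraries and are not tests over mice.

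**Figure D5:**
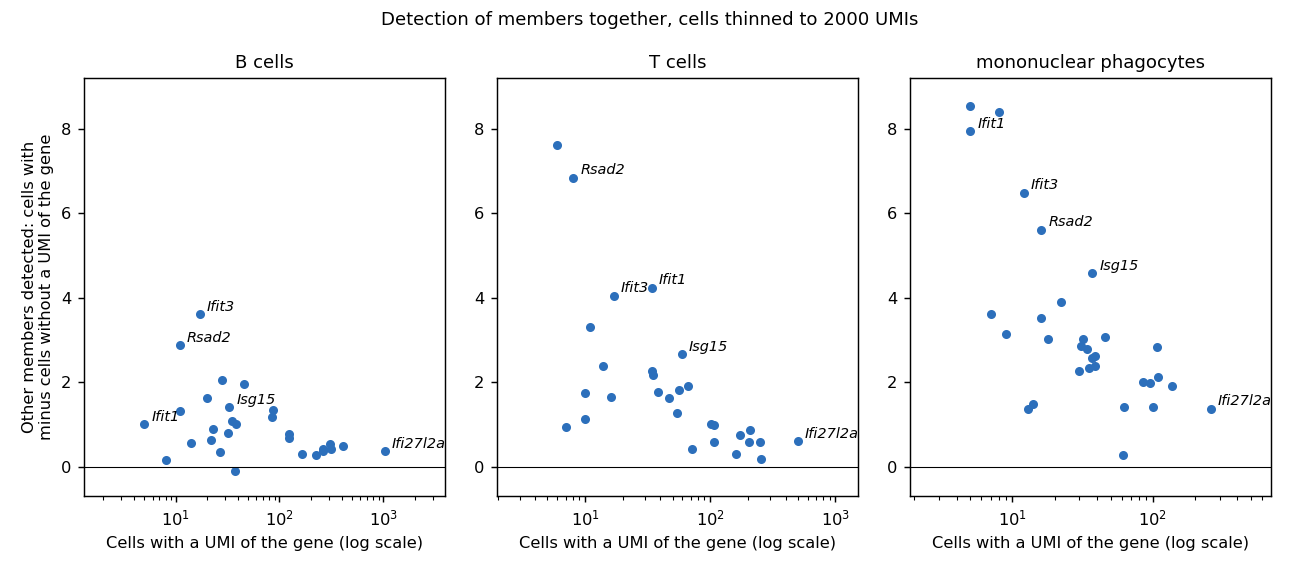
For each member, the number of cells with its UMI (x, log scale) and the mean number of other members in cells with minus cells without it (y), after thinning to 2000 UMIs, in B cells, T cells and phagocytes. In T cells and phagocytes Ifit1, Ifit3, Rsad2 and Isg15 lie high on the y axis, and Ifi27l2a lies low at the right.

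Cells with at least 8 of the 32 members at 2000 UMIs numbered 102 of 4793, 2.128% (exact binomial 95% interval 1.738 to 2.577, counting error only). They made up 2.041%, 2.507%, 2.857%, 2.599% and 3.736% of cells in treated mice 1 to 5 and 1.006%, 1.248%, 1.592%, 1.384% and 2.507% in untreated mice 1 to 5. Untreated mouse 5 reached into the range of the treated mice, and the other 4 untreated mice lay below it. By type the share was 18.27% of 208 monocytes (13.26 to 24.20), 12.04% of 108 neutrophils, 2.208% of 453 CD4 T cells, 0.5063% of 2370 B cells and 0.1923% of 520 NK cells. Monocytes made up 5.233% of cells in treated and 3.348% in untreated mice on average, and neutrophils 2.965% and 1.312%. The part of that shift in the shares per mouse was not tested. The cell with the most members held 24 of them in 60 UMIs and was a monocyte of untreated mouse 5. Without thinning the share was 18.22%, since deeper cells show more members, and 67 treated and 36 untreated cells were too shallow to be thinned.

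The rest of the pathway was read from gene lists beside the set. Among 9 interferon genes, Ifna2, Ifna4, Ifna5, Ifnb1, Ifne, Ifnl2 and Ifnl3 were at 0 in all 10 mice. Ifnk, another of the 9, did not pass the count filter and was not tested, and its level is not given here. Ifng, the type II interferon made by NK and T cells, had a log2 fold change of 0.71 ± 0.31 (edgeR adjusted p = 0.1668). Of 5 receptor chains tested 1 was called, Ifnar2, at 120.6, 118.2, 124.1, 111.1 and 118.6 CPM in treated mice and 78.88, 91.92, 88.52, 90.27 and 96.15 in untreated mice. The groups did not overlap, and the log2 fold change was 0.33 ± 0.06 (edgeR adjusted p = 0.005787). Its partner Ifnar1 had 0.03 ± 0.10 and did not pass. Among 10 kinases and transcription factors 1 was higher, Irf8, a factor of myeloid and B cells, with 0.64 ± 0.18 (edgeR adjusted p = 0.04343).

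Among 37 other interferon-induced genes tested over all leukocytes, 4 were higher and 2 lower, with a median log2 fold change of 0.06. Of 6 negative regulators 1 was higher, Ptprc, which encodes CD45, and of 11 genes of nucleic acid sensing 1 was higher, Irak4, a kinase of Toll-like receptor signalling, with log2 fold changes of 0.28 ± 0.07 and 0.29 ± 0.07. Against 9.45% of all genes called over all leukocytes, none of these list counts is read as particular to its list. Ifitm2, a membrane protein that blocks viral entry, was higher by 0.99 ± 0.28 and Oas2, an oligoadenylate synthetase, by 0.99 ± 0.26, while Ly6a, the surface protein Sca-1, was lower, at -0.66 ± 0.09 (edgeR adjusted p = 0.001539). Of 16 genes known mainly from interferon gamma 0 were called. In B cells, where 2.46% of all genes were called, Socs3, an inhibitor of cytokine signalling, was lower at -1.03 ± 0.25 (edgeR adjusted p = 0.03757) and Helz2, a helicase-type coactivator, higher at 0.43 (edgeR adjusted p = 0.04602).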

How the data were processed

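Cells were measured with 10x Chromium 3' v3 libraries and TotalSeq-B hashtags. The authors deposited raw UMI counts per gene and barcode with cell metadata; per the submitters' processing notes bcl2fastq, Cell Ranger, Seurat and build mm10 were used, with versions not given in the sources used here. The hashtag margin, a score in the deposited metadata, served only in an alternative. Of 6468 barcodes, 5031 were deposited as singlets; 1348 doublets and 89 negatives were left out, as were singlets under 500 genes or at 10% or more mitochondrial counts (113) and 22 barcodes over 10% hemoglobin. Types were gated per cell on marker genes, with thresholds set after seeing the data. The gate matched the name of the Leiden cluster (scanpy 1.11.5, clustered without the members) for 4146 of the 4173 cells in the 5 tested gates. Of 416 T cells that entered neither the CD4 nor the CD8 gate, 288 lay in CD4 and 96 in CD8 clusters. Of the cells in no gate, 75 lay in phagocyte clusters. Counts were summed per mouse and type (at least 20 cells, at least 3 mice a group) and tested in R 4.3.3 with edgeR 4.0.16 (TMM, filterByExpr, quasi-likelihood F test, Benjamini-Hochberg over all genes tested, threshold 0.05). The fits were tested on simulated data with 200 genes changed. Changes of 1.5-fold were recovered for 58% of genes over all leukocytes and 64% in B cells. In CD4 T cells, CD8 T cells, NK cells and phagocytes the values were 50%, 32%, 30% and 14%. Alternatives were DESeq2 1.42.0, upper-quartile factors, no count filter, no cell filter, each mouse left out, cluster types, fewer cells, equal type numbers and erythroid barcodes kept. The members and lists were chosen with earlier results of these data known. Values per mouse were printed for members past the threshold in a comparison and the 3 highest members of each type; others named with values were chosen after their values were seen.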

Additional observations from a re-analysis of the deposited data

Results flagged for a closer look

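Of 74 groups of mice examined for a mouse far from its group, 8 held one. The groups reuse the same mice, and the sums contain the single genes, so this count cannot be set against a chance rate. Gonadotropin-treated mouse 5 lay apart from the other treated mice over all leukocytes for Ifih1, at 23.44 CPM, for Rtp4, at 27.77, for Parp14, at 112.9, and for the sum of the members, at 1898. Treated mouse 1 lay apart for Bst2 over all leukocytes, at 177 CPM, and for the summed members in CD8 T cells, at 1839. For Trim30a, untreated mouse 3 was apart as the lowest untreated mouse in B cells, at 81.58 CPM, and treated mouse 2 as the highest treated mouse in NK cells, at 194.4.

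The 22 hemoglobin-dominated barcodes, which entered no comparison, held Rsad2 at 334.4 CPM (128 UMIs; exact Poisson 95% interval 279.0 to 397.6), Isg20, an exonuclease, at 303.1 (116 UMIs; 250.4 to 363.5) and Isg15 at 130.6 (50 UMIs; 96.96 to 172.2). All came from treated mice, so no untreated value exists to set beside them.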

How the results depend on the processing

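The number of members higher over all leukocytes was 3 and ranged from 2 to 6 when 1 mouse was left out. Without untreated mouse 5 it was 6 (Oasl2, Ifih1, Rtp4, Ifi204, Slfn5 and Irf7). It was 0 with equal numbers of each tested type, a draw of fewer cells without neutrophils. Without the filter on low counts 1 member was called in CD4 T cells and 1 in CD8 T cells. Of the members' log2 fold changes, Bst2 over all leukocytes ranged between -0.13 and 0.21 with a mouse left out and was -0.37 with equal numbers; Ifi27l2a in B cells ranged from -0.1123 to 0.01045 and was 0.06424 in B cells with B-1 markers. Trim30a ranged from -0.02044 to 0.1079 in B cells, was -0.01217 with the higher hashtag margin and -0.13 in other B cells, and ranged from -0.19 to 0.12 in CD8 T cells. Parp14 in NK cells was -0.04684 with cluster types, and Ifi27l2a in phagocytes ranged from -0.03195 to 0.2177. The cause was not tested. The alternatives were followed for a chosen part of the members' fold changes, mostly of abundant or called members, and not for every one tested. Over all alternatives of that part 445 fold changes kept direction and call, 12 lost a call, 6 gained one and 19 changed sign. Members lower than in B cells numbered 1 to 3 in CD4 T cells and 2 to 4 in CD8 T cells with a mouse left out, and 2 in CD8 T cells of untreated mice alone.

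The mean share of cells with at least 8 members, 2.748% in treated and 1.547% in untreated mice, was 0.7858% and 0.4228% at 1000 UMIs, 5.051% and 2.782% at 3000, 4.187% and 2.129% with at least 7 members, and 2.027% and 0.9316% with at least 9. Types split by B-1 markers, monocytes alone, and mice left out of the level, interaction, mix and share results were chosen after seeing the data. The hashtag margin was not run for NK cells and phagocytes, where too few mice had enough cells. No paired analysis was possible because the mouse numbers only name mice of separate pools and nothing ties equal numbers to a pair. Depth limits the IFIT genes, neutrophils and plasmacytoid dendritic cells most, and the values over 1 pool a group cannot separate treatment from library.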
